A study of Mus musculus with 8 samples.

Results

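Skeletal muscle lineage and contractile genes were followed in cells sorted for Bapx1-driven EGFP from mouse hindlimbs at E12.5. The set held 34 genes, taken as every probe whose platform gene symbol was on the list: 4 genes of limb muscle progenitors, 4 myogenic bHLH regulators, 17 genes of the contractile apparatus and 9 other muscle fibre genes. Of these, 32 genes had a probe and shared 60 of the 45281 probes of the array. The study asked which transcripts depend on Bapx1 (Nkx3-2), a homeobox gene, in the cells that use its promoter. Hindlimb cells on a mixed C57BL/6J;129 background gave 4 arrays per genotype. In embryos labelled wildtype, EGFP was joined through an internal ribosomal entry site to the end of an intact Bapx1 gene, and the paper writes this line as heterozygous. In embryos labelled null, both alleles carried EGFP directly after the start codon of Bapx1. EGFP in both lines followed the regulatory elements of Bapx1 itself, but the reporters differed, and its effect on the cells collected was not tested. How many embryos stood behind an array was not stated in the labels or methods.

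Between 18375 and 20256 probes were above background on an array (detection p under 0.05), and arrays correlated at 0.955 to 0.987 across probes, which are not independent replicates. Both Nkx3-2 probes were above background on 0 of 4 arrays labelled wildtype and on 4 of 4 labelled null, and read at least 10.4-fold and 8.07-fold higher on the latter. The position of these probes relative to the EGFP insertions was not given, so they do not check the genotype labels, and their direction is against a loss of the transcript. Every direction below, null over wildtype, therefore rests on the labels alone.

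Limb skeletal muscle is formed by cells that leave the somites and migrate into the limb bud, whereas cartilage, tendon and muscle connective tissue arise from the limb's own mesenchyme. Migrating progenitors carry the paired-box factors Pax3 and Pax7, the homeobox factor Lbx1 and the receptor Met. The bHLH factors Myf5 and Myod1 commit them to muscle, and Myog drives their differentiation into fibres that assemble actin, myosin and troponin. Bapx1 is known for its role in the axial skeleton, spleen and gut rather than in muscle.

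The progenitor genes were not above background in these cells. Pax3, Pax7, Met and Lbx1 were above background on 0 of 8 arrays, 4 of 4 genes. The highest background-subtracted intensity was 1.8 for Pax3 and 5.3 for Met, and no array exceeded the floor of 1 for Pax7 or Lbx1. Met is the receptor for hepatocyte growth factor, which guides progenitors out of the somite. Myf5 and Myf6, determination and late bHLH factors, were also above background on 0 of 8 arrays, with highest intensities of 4.4 and 7.9. None of these genes has a fold, because both groups were at background, and a low transcript level cannot be told apart from a weak probe.

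Genes of differentiated muscle were measured more often. Of the 17 contractile genes, 12 had a probe above background on at least 4 of the 8 arrays, and of the 9 other fibre genes 5 did. With Myog this gave 18 genes with 24 probes that entered the test. Tnnt3 and Myod1 were above background on fewer arrays. Myh7, Neb, Chrnd, Ckm, Casq2 and Smyd1 were above background on 0 arrays, and Myh3 and Tnnt2 had no probe. The plot of detection by gene sets these groups side by side.

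**Figure D1:**
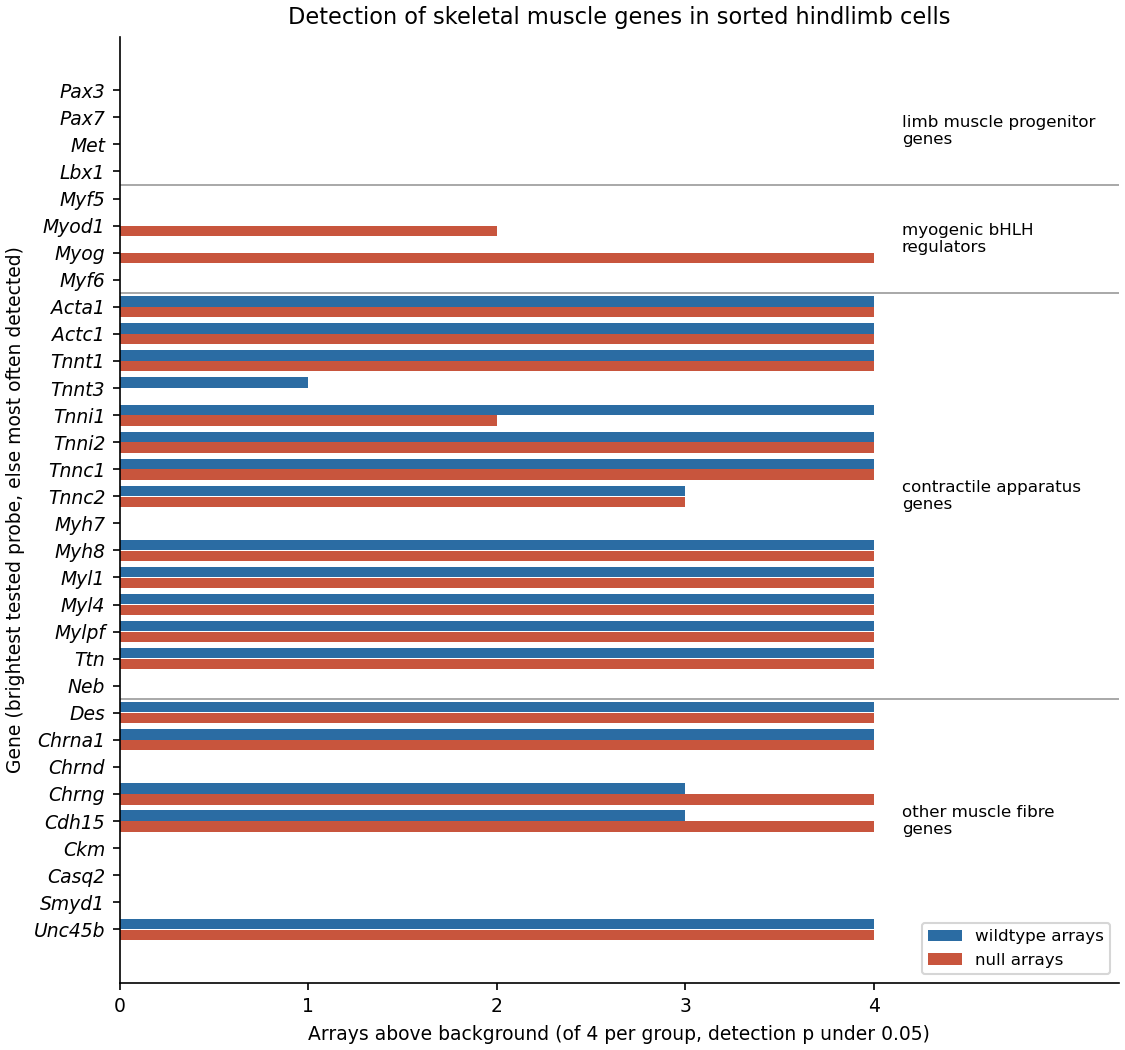
Number of arrays above background (detection p under 0.05, 4 arrays per genotype) for the 32 muscle genes with a probe, by group of genes; blue bars are arrays labelled wildtype and red bars arrays labelled null. The 4 progenitor genes have no bar, while 10 of the 15 contractile genes with a probe reach all 8 arrays.

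Myog, the bHLH factor of muscle differentiation, was the regulator with a tested probe. Its brighter probe read 4.93, 4.72, 5.06 and 4.85 on wildtype replicates 1 to 4 and 5.25, 5.51, 6.03 and 6.78 on null replicates 1 to 4, as normalized log2 levels. The groups did not overlap, and null replicate 4 was the highest. This probe was above background on 0 wildtype and 4 null arrays, so Myog is given as at least 1.72-fold higher on the arrays labelled null, against the lowest signals that counted as detected. The measured means were 4.89 ± 0.14 and 5.89 ± 0.67 (SD, n = 4). The log2 fold of 1.004 ± 0.29 (SE) did not pass, with an adjusted p of 0.232 by limma across all probes. The probe passed the detection filter through the null arrays alone, which by itself favours a difference. The other Myog probe, above background on 3 arrays of each group, had a log2 fold of 0.10 ± 0.15 with an adjusted p of 0.852, so the 2 probes of this gene disagreed.

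Myod1, the factor that sets muscle identity, had intensities of 18.5, 17.6, 20.3 and 12.9 on the wildtype arrays and 11.5, 9.0, 18.2 and 49.3 on the null arrays. It was above background on null replicates 3 and 4 and on 0 wildtype arrays. The difference lay on 1 array: null replicate 4 stood at a log2 level of 6.12, and the other 7 arrays lay between 4.85 and 5.11. Under a looser filter of 2 arrays its log2 fold was 0.19 (adjusted p = 0.838). As with every gene here, more muscle cells in the sort and more RNA per muscle cell cannot be told apart in bulk arrays.

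The actins and most troponins of the thin filament were above background in both groups, and none passed the test. Tnnt1, the slow skeletal troponin T, had the largest log2 fold of the 12 tested contractile genes. It read 8.21, 8.67, 8.88 and 8.94 on the wildtype arrays and 8.04, 9.34, 9.33 and 9.74 on the null arrays. Null replicates 2 to 4 were above all 4 wildtype arrays and null replicate 1 was below all 4. Its log2 fold was 0.44 ± 0.34 (SE, limma adjusted p = 0.674). Actc1, the cardiac actin that embryonic skeletal muscle also uses, read 8.92, 9.20, 9.65 and 9.49 against 8.27, 9.40, 10.01 and 10.18. Its log2 fold was 0.15 ± 0.38, and the second Actc1 probe gave 0.11 ± 0.43. Acta1, the adult skeletal actin, read 6.54, 7.22, 7.24 and 7.10 against 6.07, 7.48, 8.15 and 7.01, and here null replicate 3 was the highest array and null replicate 4 was within the wildtype range. By the brighter Actc1 probe, the order of the null arrays thus differed between these actins, apart from replicate 1, which was lowest for both. The second Actc1 probe read 7.76, 8.34, 9.71 and 9.40 on null replicates 1 to 4, and there replicate 3 was the highest, as for Acta1.

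Troponin C and troponin I genes had smaller folds. Tnnc1, of slow and cardiac fibres, read 7.35, 7.54, 7.67 and 7.36 against 6.45, 8.10, 7.92 and 7.63, for a log2 fold of 0.04 ± 0.32. Tnnc2, the fast form, read 5.19, 5.73, 6.23 and 4.89 against 4.92, 6.03, 5.71 and 5.16, for a log2 fold of -0.05 ± 0.33. For Tnnc2 the null arrays lay inside the wildtype range. Tnni1, the slow troponin I, was above background on 4 wildtype and 2 null arrays and had the lowest log2 fold of the tested genes, -0.10 ± 0.19 (95% interval -0.54 to 0.33). Tnni2, the fast troponin I, had the narrowest spread: all 8 arrays lay between 5.62 and 6.02, and its interval for the log2 fold ran from -0.18 to 0.37. Tnnt3, the fast troponin T, was above background on wildtype replicate 4 alone.

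Myosin genes gave the same picture of overlap. Myl1, an essential light chain of fast fibres, read 9.63, 10.20, 10.37 and 9.88 on the wildtype arrays and 9.20, 10.55, 10.62 and 10.55 on the null arrays. Null replicates 2 to 4 lay between 10.55 and 10.62, and replicate 1 was the lowest of all 8 arrays. The log2 fold of Myl1 was 0.21 ± 0.32. Mylpf, the fast regulatory light chain, had log2 folds of 0.11 ± 0.27 and 0.06 ± 0.29 by its 2 probes. Myl4, the embryonic and atrial light chain, read 7.21, 7.85, 7.81 and 7.61 against 6.34, 8.27, 8.22 and 7.49. Its mean was nearly equal in both groups (7.62 ± 0.29 and 7.58 ± 0.90, SD), with the wider spread among null arrays. Myh8, the perinatal heavy chain, had log2 folds of 0.25, 0.29 and -0.14 by its 3 tested probes, which differ in sign. Ttn, the giant spring protein titin, was tested by 1 of its 12 probes and had a log2 fold of 0.23 ± 0.28.

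Short promoter stretches of contractile genes show the sites through which serum response factor and MEF2 factors are known to act on muscle genes. They are taken from RefSeq (GRCm38.p6), read 5′ to 3′ on the strand of the gene, and the capitals mark the CArG box of the 2 actins and the MEF2 site of Ttn and Myh8.
Acta1 (chr8:123894829-123894858, minus strand): tgcccgacacCCAAATATGGcttgggaagg
Actc1 (chr2:114052903-114052932, minus strand): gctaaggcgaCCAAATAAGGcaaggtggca
Ttn (chr2:76982694-76982723, minus strand): ttctgaaaggCTAAATTTAGcactgccaat
Myh8 (chr11:67277015-67277044, plus strand): ccttgtcaaaTTATTTATAGgagattggtt

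Receptor and surface genes of the muscle fibre were highest on null replicate 4. Chrng, the fetal gamma subunit of the acetylcholine receptor, read 5.16, 5.82, 5.86 and 5.03 on the wildtype arrays and 5.51, 6.47, 6.54 and 7.45 on the null arrays. Null replicates 2 to 4 were above every wildtype array, and null replicate 1 was within the wildtype range. The log2 fold of Chrng was 1.03 ± 0.37 (SE), with an adjusted p of 0.342 by limma. Chrna1, the alpha subunit, read 5.66, 5.77, 6.28 and 5.99 against 5.51, 6.21, 6.74 and 7.41, and its 2 probes gave log2 folds of 0.54 ± 0.35 and 0.57 ± 0.33. Chrnd, the delta subunit, was at background on all 8 arrays. Cdh15, the M-cadherin of myoblasts, read 5.92, 5.08, 6.19 and 5.78 against 5.58, 6.11, 6.63 and 7.32, for a log2 fold of 0.67 ± 0.36 (adjusted p = 0.540). For Chrng, Chrna1 and Cdh15 null replicate 4 was the highest array, as for Myog by its brighter probe only. Without that array the log2 folds were 0.71 for Chrng, 0.23 for Chrna1, 0.37 for Cdh15 and 0.71 for Myog.

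Des and Unc45b completed the tested fibre genes. Des, the intermediate filament protein of muscle, read 5.40, 5.51, 5.63 and 5.67 against 5.09, 6.07, 5.86 and 6.25. Null replicate 1 was again below all 4 wildtype arrays and the other 3 null arrays above them, and the log2 fold was 0.26 ± 0.23 (adjusted p = 0.716). Unc45b, a myosin chaperone, was 5.94 ± 0.53 and 6.00 ± 0.47 (SD) in the groups, for a log2 fold of 0.07 ± 0.30.

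Both receptor promoters hold the E-box form CAGCTG that muscle bHLH factors are known to bind, 2 copies in each. The stretches below are from the same source, with the E-box in capitals.
Chrng (chr1:87205644-87205673, plus strand): atatcctgggaaCAGCTGacaatgcagtgg
Chrng (chr1:87205667-87205696, plus strand): gcagtggtcagaCAGCTGgtggggccagct
Chrna1 (chr2:73580413-73580442, minus strand): ctgtgggcagctCAGCTGtcatgcgggcac
Chrna1 (chr2:73580365-73580394, minus strand): tagctgtggagtCAGCTGgcttccaaggcc

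**Figure D2:**
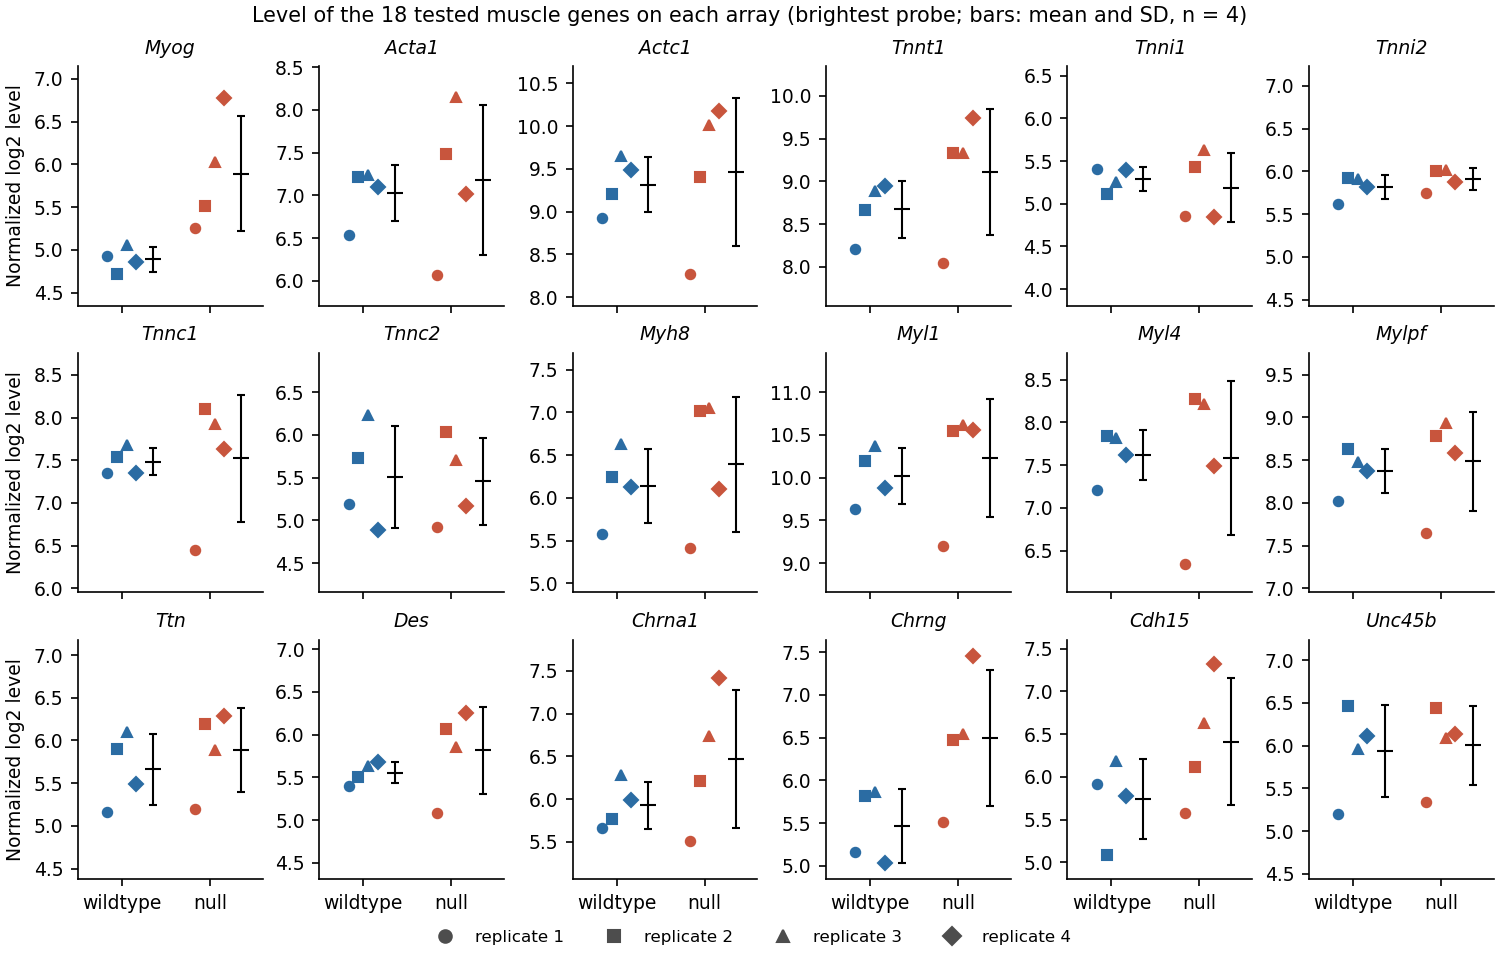
Normalized log2 level of the 18 tested muscle genes on each array (brightest probe of a gene, every panel spanning the same range of log2 units), blue for arrays labelled wildtype and red for arrays labelled null; symbols mark the replicate and bars give the mean and SD (n = 4). Null replicate 1, the red circle, is the lowest red point in all panels except Tnni1, where null replicate 4 is level with it, and Myog alone has groups that do not overlap.

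No muscle gene passed the test. By limma, 0 of 24 muscle probes and 0 of the 18 genes (brightest probe each) were called at an adjusted p under 0.05, where 0.761% of all 19568 tested probes and 0.947% of all 10772 tested genes were called. At an unadjusted p under 0.05 there were 2 muscle genes of 18, Myog and Chrng, beside 11.5% of all genes. Myog counts here by a probe that entered the test, and became its brighter probe, through the null arrays alone, and its other probe had an unadjusted p of 0.53. An ordinary F test, the kind the methods name, called 0 members and had 1 at an unadjusted p under 0.05. Groups without overlap were seen for 1 of 18 muscle genes, beside 7.13% of all genes, and for 1 of 24 muscle probes, beside 6.29% of all probes. This was the same Myog probe, and the groups of the other Myog probe overlapped, so neither count is read as a result about the muscle genes. The log2 fold was above 0 for 15 of the 18, with a median of 0.18, where 42.3% of all genes were above 0 and their median was -0.04. The 18 genes moved together by array, so counts over them, here and below, are not counts of independent genes. The 12 contractile genes had 9 above 0 and a median of 0.13, with a lowest adjusted p of 0.674. The 5 other fibre genes had 5 above 0 and a median of 0.54, with a lowest adjusted p of 0.342, and their median was 0.23 without null replicate 4. Of the 18 intervals, 16 include 0, so a rise and a fall both lie within the interval of each of those genes.

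**Figure D3:**
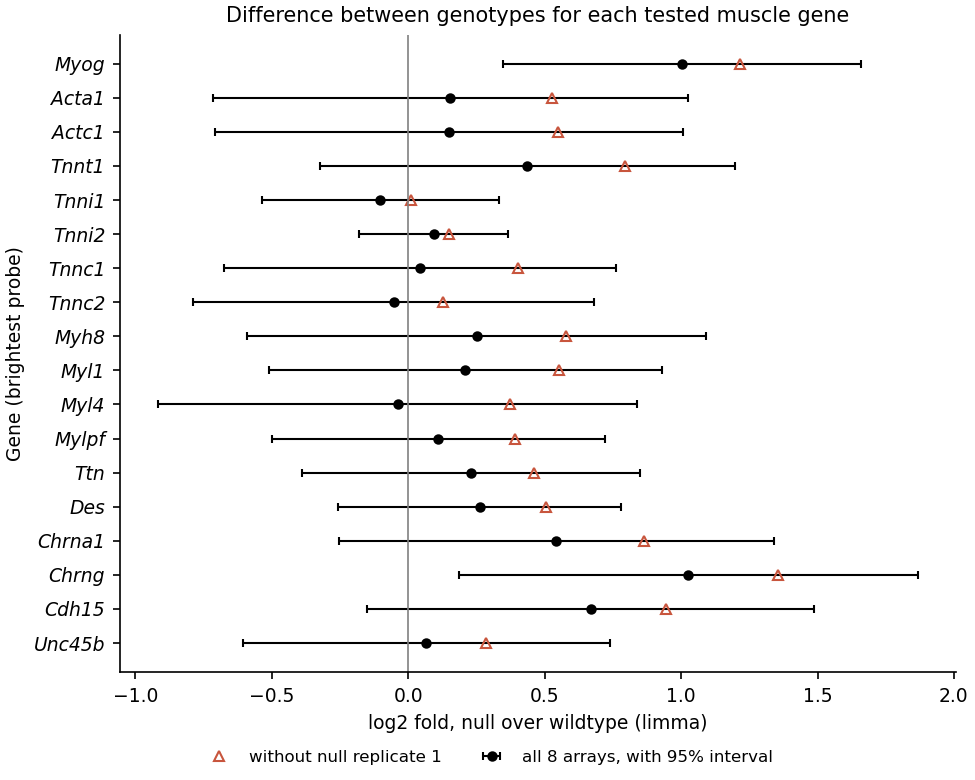
log2 fold of null over wildtype for the 18 tested muscle genes (brightest probe); filled points with bars are the limma estimate from all 8 arrays and its 95% interval, and open triangles the estimate without null replicate 1. The intervals of Myog and Chrng alone lie above 0, and every triangle lies to the right of its point.

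The null arrays disagreed among themselves more than the wildtype arrays. The SD among null arrays was above that among wildtype arrays for 15 of 18 muscle genes (83.3%), against 43.6% of all genes, and the median SD of the muscle genes was 0.71 on null and 0.32 on wildtype arrays, against 0.19 and 0.21 over all genes. Much of this, but not all, came from 1 array. Without null replicate 1 the SD was higher among null arrays for 11 of 18 muscle genes, against 40.3% of all genes. The median SD on null arrays was then 0.41 for the muscle genes, against 0.18 over all genes. Null replicate 1 was below its group mean for 18 of 18 genes, by a median of 0.90, and below all 4 wildtype arrays for 11 of 18, against 27.3% of all genes. Null replicate 3 was above all 4 wildtype arrays for 15 of 18 (15.0% of all genes), null replicate 2 for 13 (24.3%) and null replicate 4 for 9 (17.4%). By brightest probes, null replicates 3 and 4 split the muscle genes, a split not counted over all genes. Replicate 4 was the higher for 9, among them Chrna1, Chrng and Cdh15. It was the lower for the other 9, among them Acta1, Myl4 and Tnni1. Other probes of Myog, Actc1, Mylpf and Myh8 had the opposite order to the brightest. On these, null replicates 3 and 4 read 5.47 and 5.35 for Myog and 9.71 and 9.40 for Actc1. They read 7.20 and 7.31 for Mylpf and 5.31 and 5.89 for Myh8. The remaining Myh8 probe and the second Chrna1 probe kept the order. Wildtype replicate 1 was below its group mean for 15 of 18 and wildtype replicate 3 above it for 17.

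Of the 8 arrays, leaving out null replicate 1 moved the median of the muscle genes most. All 18 log2 folds were then above 0 (45.4% of all genes), with a median of 0.51, and 9 genes had an unadjusted p under 0.05 (10.6% of all genes): Myog, Chrng, Tnnt1, Des, Chrna1, Myl1, Cdh15, Tnnc1 and Actc1. The lowest adjusted p was 0.122, for Myog, and 0 were called. Myog counts here again by the probe that passed the detection filter through the null arrays alone. The median of the contractile genes became 0.43 and that of the other fibre genes 0.86. This array was left out as 1 of 8 planned omissions and its values for these genes were known, so the larger folds are a description of the other 7 arrays. Other omissions lowered the values. Without null replicate 3, 11 of 18 log2 folds were above 0 with a median of 0.05, and the contractile median was -0.03. Without wildtype replicate 1, 11 of 18 were above 0 with a median of 0.04, and the contractile median was 0.01. Without null replicates 2 and 4 in turn, the median over the 18 genes was 0.08 and 0.10.

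Markers of other cell types moved by array as well. On null replicate 1 the mean level of the contractile genes was 0.79 below its mean over the 8 arrays and that of the other fibre genes 0.58 below. The same array was the lowest of 8 for smooth muscle markers (-0.52, 3 of 7 tested), endothelial markers (-0.73, 5 of 7), macrophage markers (-1.10, 3 of 6), nerve and Schwann cell markers (-0.80, 2 of 6) and platelet markers (-1.85, 8 of 8). It was not the lowest for cartilage markers, whose 7 tested genes lay 0.22 below on it and 0.43 below on null replicate 4. Nor was it for muscle connective tissue (-0.11, 4 of 5 tested) or surface ectoderm markers (-0.14, 3 of 6). Erythroid markers (6 of 8) lay 0.91 above their mean on it. Erythroid markers were highest on null replicate 4, at 2.59 above their mean. By genotype, 7 of 8 platelet markers were called lower and 1 of 6 tested erythroid markers, Hbb-bh1, was called higher, where 0.947% of all genes were called. All 6 erythroid log2 folds were above 0 (1.89 to 2.97) and all 8 platelet ones below 0 (-3.51 to -1.14), where 42.3% of all genes were above 0. The lowest erythroid fold, of Alas2, came from a probe above background on 0 wildtype and 4 null arrays. The part of these cells in the muscle values was not tested.

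**Figure D4:**
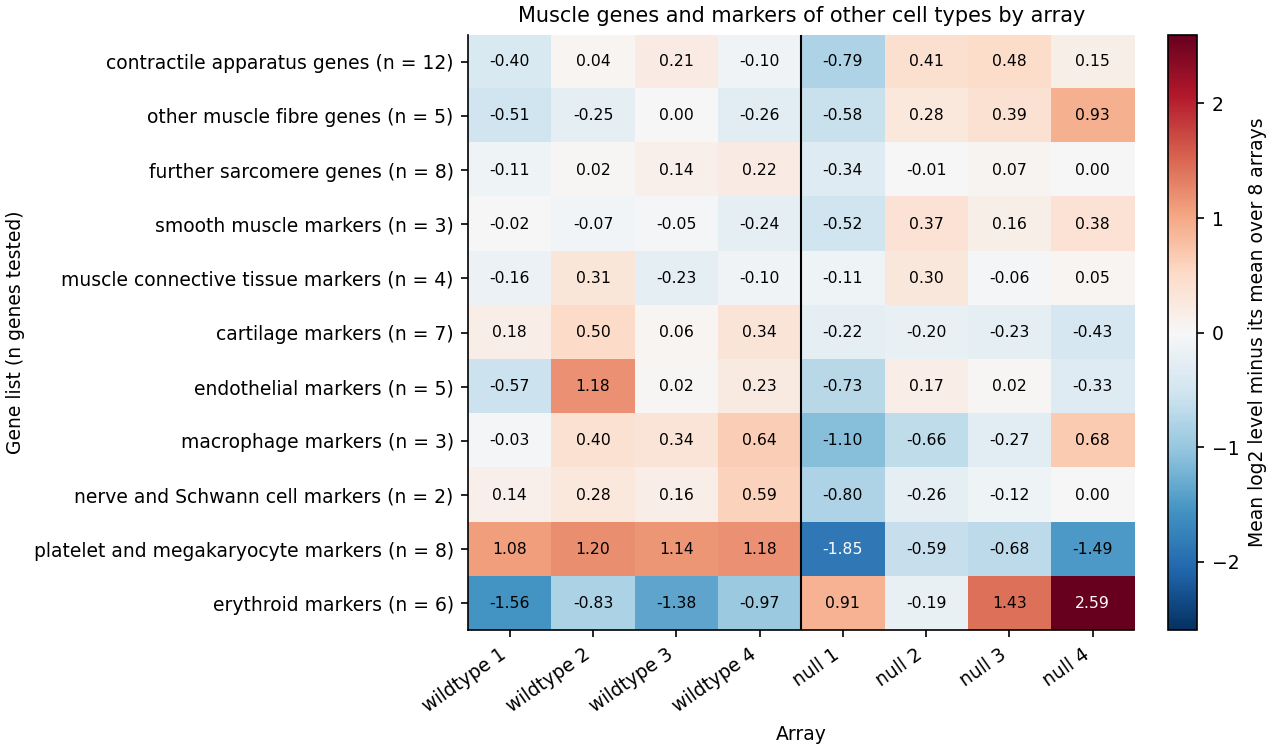
Mean log2 level of each gene list on each array minus its mean over the 8 arrays, with the number of tested genes in brackets; red is above and blue below. Null replicate 1 is the lowest array for contractile (-0.79) and other fibre genes (-0.58) and also for endothelial, macrophage, nerve and platelet markers. Cartilage markers are lowest on null replicate 4 (-0.43), muscle connective tissue markers on wildtype replicate 3 (-0.23) and erythroid markers on wildtype replicate 1 (-1.56).

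Genes around this set gave no single direction. Of 75 further muscle genes in 6 lists, 36 were tested and 0 were called by limma, where 0.947% of all genes were called. Of the 36, 16 log2 folds were above 0, with a median of -0.02, where 42.3% of all genes were above 0. At an unadjusted p under 0.05 there were 3, beside 11.5% of all genes, and this count is not read as a result about these lists. Those 3 had the lower mean on the arrays labelled null. Tpm2, a tropomyosin of slow muscle that other contractile cells also use, read 9.68, 9.14, 9.65 and 9.73 on the wildtype arrays and 8.76, 8.59, 8.86 and 8.99 on the null arrays. Its groups did not overlap, and the log2 fold was -0.75 ± 0.16 (adjusted p = 0.088). The second Tpm2 probe had a log2 fold of 0.00 ± 0.35, so the probes disagreed. Mybpc1, the slow myosin-binding protein C, had -0.64 ± 0.27 (adjusted p = 0.407) and Pgam2, the muscle phosphoglycerate mutase, -0.51 ± 0.22 (adjusted p = 0.415). The second Mybpc1 probe, above background on 3 wildtype arrays and 1 null array, gave -0.62 ± 0.20 (limma adjusted p = 0.271).

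Among 11 tested upstream and partner regulators the log2 folds ran from -0.17 to 0.71, with a lowest adjusted p of 0.507 by the brightest probes. Mef2c, a MADS-box partner of the bHLH factors that endothelium and cartilage also express, had 0.71 ± 0.36, Tcf3, which encodes E-protein partners of the bHLH factors, 0.44 ± 0.33, and Eya2, a transcriptional cofactor of myogenesis, 0.16 ± 0.12. Other probes of Mef2c gave 0.83 ± 0.24 and 0.52 ± 0.25, and the second Tcf3 probe 0.67 ± 0.39. The Mef2c probe at 0.83 had an adjusted p of 0.227 by limma and was above background on 1 wildtype and 4 null arrays. Vgll2 and Msc were singled out after their values were seen, for their order of arrays. Vgll2, a TEAD cofactor of skeletal muscle, read 5.64, 5.83, 6.06 and 6.32 against 5.64, 5.78, 6.82 and 7.77 (log2 fold 0.54 ± 0.43, and 0.71 ± 0.44 by its second probe). Msc, a bHLH repressor found in muscle precursors, read 8.84, 9.18, 9.10 and 9.28 against 8.30, 9.81, 9.96 and 10.30 (log2 fold 0.49 ± 0.37). In Msc, as in Tnnt1 and Des, null replicate 1 was below and the other 3 null arrays above every wildtype array. All 4 genes of progenitor migration signalling were above background, and Gab1, the adaptor that relays Met signals, did not overlap between the groups, with a log2 fold of -0.22 ± 0.10 (adjusted p = 0.444).

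The E-box and MEF2 letters were counted in the promoters of the members as a description of sequence. RefSeq promoters, from 250 bases before to 50 after the start, were found for 26 of the 34 genes, and both strands were searched. CANNTG was present in 22 of 26 (84.6%) and in 72.1% of 27025 promoters. Its form CAGCTG was present in 9 (34.6%), against 16.1%, and its form CACCTG in 9 (34.6%), against 20.03%. The MEF2 site was present in 3 (11.5%), against 1.89%, and the CArG box in 2 (7.69%), against 1.57%. TAAGTG and TGAGTG, letters of NK homeobox sites, were present in 3 promoters each (11.5%), against 9.34% and 16.3%. The promoter of Myog held a CANNTG but not CAGCTG in this window.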

How the data were processed

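RNA of sorted cells was hybridized to Illumina MouseWG-6 v2.0 arrays, 1 per sample. The deposited intensity values came from the authors' GenomeStudio export, background-subtracted but not normalized across arrays; no software version was stated. The deposited detection columns rise with intensity, and 1 minus their value was used as the p-value of detection. The deposited log2 table, centred by array and by probe, was used to name rows: 35454 of 45281 rows matched 1 probe within 1e-05, and the other 9827 matched several and were above background on 0 arrays. Its centring constant per probe is unknown, and it served as an alternative only.

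Intensities were corrected with normexp from the detection p-values (offset 16), then quantile normalized and log2 transformed (neqc, limma 3.58.1, R 4.3.3). The 19568 probes detected on at least 4 of 8 arrays entered limma (two-sided eBayes test of genotype alone), with p-values adjusted after Benjamini and Hochberg over all of them and a threshold of 0.05. Precision was limited by the number of arrays: the median SE of a log2 fold was 0.165 over all tested probes. Counted by the brightest probe, it was 0.154 over all tested genes and 0.323 over the 18 muscle genes. Where a group was above background on 0 arrays, the fold is a bound for the group means against the lowest detected signals, without the scatter of the arrays. Genes with several probes were counted by the brightest. The steps were tested on simulated data.

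Groups and replicate numbers came from the titles. Arrays are biological replicates by the methods, and a p-value here reflects only how far the 8 arrays scatter. Every member is named, array by array or by counts and range, and of the other lists the called genes or up to 3 with the smallest p; Vgll2 and Msc lie outside this rule. The members and lists were chosen with earlier results of these data known. Same-numbered arrays deviated together in some pairs but not in all, and were not paired. The 21 alternatives covered background, scaling, filter, test, block and omitted arrays. Promoters came from RefSeq tables (Python 3.11.15), and no slide or scan information or probe sequence was used.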

Additional observations from a re-analysis of the deposited data

Results flagged for a closer look

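The null arrays of Myl1 were flagged because 1 array lay far from the other 3. Null replicate 1 read 9.20 and the nearest array 10.55, a gap of 0.9489 of the range of the group. Of 48 groups of 4 arrays tested (24 probes in 2 genotypes), 1 was flagged, and chance flags about 1 in 20. The same array was the lowest of the null group for most of the other members without passing this limit.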

How the results depend on the processing

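The count of called muscle probes was 0 in all 21 alternatives. Over all probes, 149 were called, and 59 without background correction, 10 with scaling by median absolute deviation (which also has no background correction), 65 in the deposited log2 table, 97 among probes detected on all 8 arrays, 267 with array weights and 53 by the ordinary F test. Leaving out 1 array gave 59 to 150, with 79 without wildtype replicate 1, 59 without wildtype replicate 3, and 97, 91 and 81 without null replicates 2, 3 and 4. With the replicate block 108 probes and 0 muscle probes were called; same-numbered arrays correlated at 0.07, 0.46, 0.26 and -0.31 in their deviations, so not every pair deviated together and the numbers are not taken to pair the samples.

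Of 373 log2 folds of muscle genes recomputed, 345 kept their sign and side of the threshold and 28 turned, all of small folds. Scaling moved all genes: the median over probes was -0.03, and -0.14 with median centring, -0.11 in the deposited table and 0.06 with scaling by median absolute deviation, where 12, 14 and 17 of 18 members were above 0. Median centring turned Actc1 (-0.0048), Tnnc1 (-0.0876) and Mylpf (-0.0425), the deposited table Tnnc1 (-0.0539), array weights Tnnc1 (-0.0034), the other normexp setting Myl4 (0.0039) and scaling by median absolute deviation Tnnc2 (0.0198) and Myl4 (0.0122). The log2 fold of Myog ran from 0.50 (normexp, offset 50) to 1.85 (scaling by median absolute deviation) and that of Chrng from 0.59 to 1.47 under the same settings. Leaving out 1 array gave ranges of -0.17 to 0.53 for Acta1, -0.086 to 0.55 for Actc1, -0.15 to 0.40 for Tnnc1, -0.038 to 0.39 for Mylpf, -0.18 to 0.29 for Unc45b, -0.26 to 0.19 for Tnnc2, -0.27 to 0.37 for Myl4 and -0.25 to 0.013 for Tnni1. The cause was not tested. Signal near background limits Myog, Chrng, Cdh15, Tnni1 and Tnnc2, whose probes were not detected on every array.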

Other observations

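Smooth muscle actin Acta2, which early skeletal muscle also expresses, read 9.50, 9.98, 10.25 and 10.04 on the wildtype arrays and 9.44, 10.72, 10.90 and 11.70 on the null arrays. Null replicate 1 was below and the other 3 null arrays above every wildtype array, the order seen for Tnnt1 and Des. These are the values of its brightest probe, with a log2 fold of 0.75 ± 0.41 (SE, limma adjusted p = 0.542). The other 3 probes gave 0.59, 0.24 and 0.10, and on the last 2 null replicate 1 was within the wildtype range. The muscle connective tissue factors Osr1 and Osr2, a related pair of zinc-finger genes, differed in sign. Osr1 read 6.13, 7.58, 6.48 and 6.96 against 6.88, 8.20, 7.54 and 7.77 (log2 fold 0.81 ± 0.35, adjusted p = 0.424). Osr2 read 13.39, 13.73, 13.44 and 13.44 against 13.02, 13.37, 13.01 and 13.05, without overlap (log2 fold -0.39 ± 0.13, adjusted p = 0.316), but the groups of its second probe overlapped (log2 fold -0.16 ± 0.13, adjusted p = 0.684).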
